A study of Homo sapiens with 2 samples.

Results

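A group of 5 small RNAs tied to inflammation and cancer were followed in HepG2, a human liver cancer cell line, after exposure to TCDD. They are both arms of the miR-21 hairpin (hsa-miR-21 and hsa-miR-21*), hsa-miR-146a, hsa-miR-146b-5p and hsa-miR-155. They were taken from the deposited table by exact probe name, 5 of 718 names. The members were chosen by name with the log2 fluorescence on both arrays already known, in particular the values of both arms of miR-21, so every difference between the arrays given here is a description. TCDD (2,3,7,8-tetrachlorodibenzo-p-dioxin) is an environmental pollutant and a potent ligand of the aryl hydrocarbon receptor, a transcription factor. Per the labels, 1 array held total RNA of cells given TCDD at 10 nM for 48 h and 1 array held RNA of control cells, for which the labels name no vehicle and no time. The treatment text that gives the dose and the time is the same for both arrays, so the grouping rests on the titles and on the treatment label of each sample. Both came from the same cell line, both were labelled with Cy3, and no second array of either kind was analysed here.

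A miRNA hairpin is cut into a duplex of 2 short strands. One of them, the guide, is usually kept in an Argonaute protein and pairs with messenger RNAs through its seed, bases 2 to 8, while the other, the passenger or star strand, is usually degraded. miR-21 is a guide found at high levels in many tumours, hepatocellular carcinoma included, and represses the tumour suppressor PDCD4. miR-146a and miR-146b-5p are induced by inflammatory signalling, miR-146a through NF-κB, and repress IRAK1 and TRAF6, which carry signals from Toll-like and interleukin-1 receptors. miR-155, made from the host transcript MIR155HG, is a miRNA of activated immune cells.

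The mature sequences show which members can share targets and which probes could bind each other's RNA. Of the 5 members, 4 matched a mature sequence in RefSeq (GRCh38.p14), and they are printed 5′ to 3′ with the seed in capitals, together with miR-590-5p, the other RefSeq miRNA with the seed of miR-21.

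miR-21: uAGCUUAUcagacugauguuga
miR-590-5p: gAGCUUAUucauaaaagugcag
miR-146a: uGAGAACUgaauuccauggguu
miR-146b-5p: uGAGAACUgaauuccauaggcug
miR-155: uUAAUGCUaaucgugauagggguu

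The 4 members fall into 3 seed groups, AGCUUAU for miR-21, GAGAACU for both miR-146 miRNAs and UAAUGCU for miR-155. All 4 begin with U and 36.4% to 43.5% of their bases are G or C. miR-146a and miR-146b-5p are the same at 20 of 22 compared positions. Counted from 1 at the 5′ end of miR-146a, the differences are G18A and U21C, both in the 3′ part, and miR-146b-5p is 1 base longer. Signal on either miR-146 probe can therefore include RNA of the other, and how much was not tested. miR-21 lies on the plus strand at chr17:59841273-59841294, within the span of VMP1, a gene for an autophagy protein. miR-146a lies at chr5:160485372-160485393 (plus strand) within the span of the non-coding host gene MIR3142HG, and miR-155 at chr21:25573983-25574006 (plus strand) within MIR155HG. miR-146b-5p, at chr10:102436520-102436542 (plus strand), lies within the span of no other gene of the RefSeq table.

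The values are log2 fluorescence as deposited. The smallest value, 5.64 on both arrays (a fluorescence of 50), was shared by 257 names on the TCDD array and by 343 on the control array. A floor was set at 2 times that value, a fluorescence of 100 or 6.64 on the log2 scale, and a name above it on at least 1 array was counted as detected. This held for 242 of 718 names, 237 of them on the TCDD array and 227 on the control array. The blood and immune markers (miR-142-3p, miR-142-5p, miR-150, miR-223 and miR-451) were all at or under the floor on both arrays. The liver miRNAs miR-192 (13.96 log2 fluorescence on the TCDD array and 13.88 on the control array), miR-194 (13.06 on the TCDD array and 12.34 on the control array) and miR-122a (7.59 on the TCDD array and 7.60 on the control array) were all detected. Hepatocytes are known for abundant miR-122, and here its probe was close to the floor. Having 1 array per group, the comparison allows no test, and its precision is limited by that number. Of 4 fibroblast and smooth muscle markers, miR-143 (10.36 on the TCDD array and 10.17 on the control array) and miR-145 (12.42 on the TCDD array and 12.39 on the control array) were detected, while miR-199a-5p and miR-214 were not.

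Of the 5 miRNAs, 4 were detected, all on both arrays, and miR-155 was not. Of these, 3 (miR-21*, miR-146a and miR-21) were lower on the TCDD array than on the control array, and miR-146b-5p was nearly level. None of the 4 was at least 2-fold apart, against 2.89% of the 242 detected names. A pair of them, miR-21* and miR-146a, were at least 1.5-fold lower on the TCDD array, where 4.13% of detected names were. The median log2 difference (TCDD minus control) of the 4 was -0.44, beside -0.003 over all 242 detected names, of which 120 were higher and 122 lower on the TCDD array. Because the members were chosen with these values known, their counts and median say nothing about miRNAs of this kind in general.

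**Figure D1:**
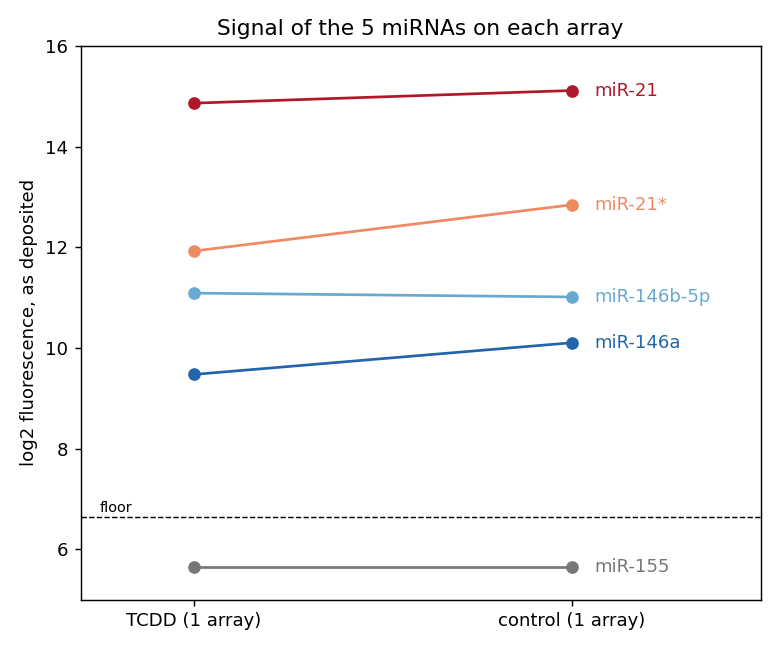
Deposited log2 fluorescence (vertical axis) of the 5 miRNAs on the TCDD array (left) and the control array (right), with 1 point per array, no error bars because each group had 1 array, and the floor of 6.64 as a dashed line. The lines of miR-21* and miR-146a slope most, that of miR-146b-5p is nearly flat, and miR-155 is at the smallest deposited value, 5.64, on both arrays.

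The guide arm, hsa-miR-21, had 14.86 log2 fluorescence on the TCDD array and 15.11 on the control array. It was 1.19-fold lower with TCDD, a log2 difference of -0.25. That is under the robust SD of 0.28, the spread of the differences between names above the floor on both arrays, and 48 of the 242 detected names had a lower difference. On the log2 scale the probe lay 1.16 below the highest value of the TCDD array and 0.81 below that of the control array. Whether a signal so near the top of the range was compressed was not tested.

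The passenger arm of the same hairpin, hsa-miR-21*, had 11.93 log2 fluorescence on the TCDD array and 12.84 on the control array. In linear units these are 3892 on the TCDD array and 7350 on the control array. The probe was thus 1.89-fold lower with TCDD, a log2 difference of -0.92. Only 6 of the 242 detected names had a lower difference, and these were the 6 names at least 2-fold lower (2.48% of those detected). Of the names that did not reach that threshold, miR-21* had the lowest difference. The 222 names above the floor on both arrays were split by mean level into 4 bins of like size. Within the brightest bin (56 names with a median difference of 0.08), 3 had a lower difference than miR-21*, and 10 had a lower one than miR-21. With a scaling inferred from the values by a fitted curve undone, miR-21* was past 2-fold, at -1.05. In that setting the median of the detected names was itself at -0.07, and miR-21 was at -0.37, so the move was not particular to miR-21*.

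**Figure D2:**
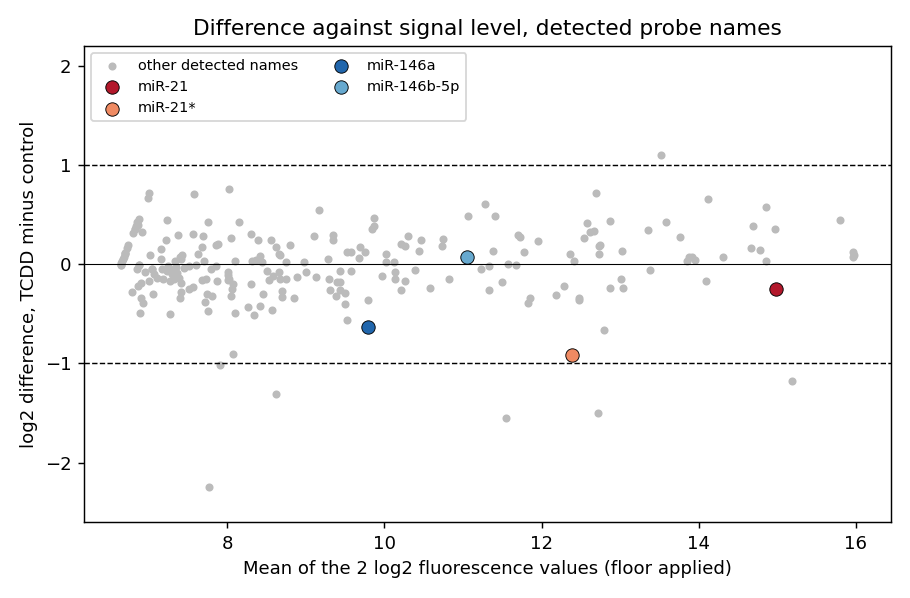
Log2 difference, TCDD minus control (vertical axis), against the mean of both log2 values (horizontal axis) for the 242 detected names, 1 point per name, with the 4 detected members in colour and dashed lines at 2-fold. miR-146a has the lowest difference of its level bin, miR-21* lies low with 3 names of its bin below it, and miR-21 and miR-146b-5p lie among the other names.

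The arms of miR-21 differed unequally between the arrays. The log2 difference of miR-21 minus that of miR-21* was 0.67, so that relative to miR-21* the miR-21 signal was 1.59-fold higher on the TCDD array than on the control array. To place this gap, every hairpin with a probe for both arms was taken (177 pairs, named X and X* or X-5p and X-3p), and 42 of them had both arms above the floor on both arrays. The absolute gap of these 42 had a median of 0.23 and quartiles of 0.10 and 0.39. That of miR-21 had rank 5, with 37 hairpins below it and 4 above it. Those 4 were miR-191 and miR-191* (-1.08), miR-339-5p and miR-339-3p (0.83), miR-200a and miR-200a* (0.69), and miR-149 and miR-149* (-0.68). At the other end the gap of miR-331-5p and miR-331-3p was -0.02. The hairpin of miR-181a was outside the 42 because miR-181a* was under the floor on the TCDD array. With the floor its gap was 0.75, a lower bound, and both arms were lower on the TCDD array. Among pairs detected in both arms on at least 1 array, 6 gaps, miR-21 included, were at least as large as that of miR-21. The names miR-149, miR-149*, miR-181a and miR-181a* are given after their values were seen.

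No common direction ran through the hairpins. The gap was above 0 in 19 of the 42 and below 0 in 23, and the median signed gap was -0.05. Among the 29 pairs with a star name, 13 had a gap above 0, as miR-21 did, and 16 had one below 0. Both arms were lower on the TCDD array in 13 hairpins, miR-21 among them, both were higher in 10, and they lay on opposite sides of 0 in 19. The passenger arm of miR-21 was a bright one, since its probe and 8 more of the 42 second-named arms lay above 10 log2 fluorescence on both arrays. The gaps of these 9 ran from -0.68 to 0.67, and without miR-21 the highest was 0.19. The lowest, that of miR-149 and miR-149*, was larger in size than that of miR-21. In several of the 9, miR-149* and miR-331-3p among them, the second-named arm was the brighter on both arrays. The sign of a gap there follows the naming and not which arm is brighter. Of 45 star probes above the floor on both arrays, 30 were lower and 15 higher on the TCDD array, with a median difference of -0.08. Over all names, the dimmest level bin had a median of -0.05 and the next one of -0.13. miR-21* had the lowest difference of the 45, and the next was miR-505* at -0.40. Of the 51 star probes detected on at least 1 array, 1 had a lower difference. It was miR-181a*, named after its value was seen, which was under the floor on the TCDD array (5.95 log2 fluorescence there and 8.89 on the control array).

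**Figure D3:**
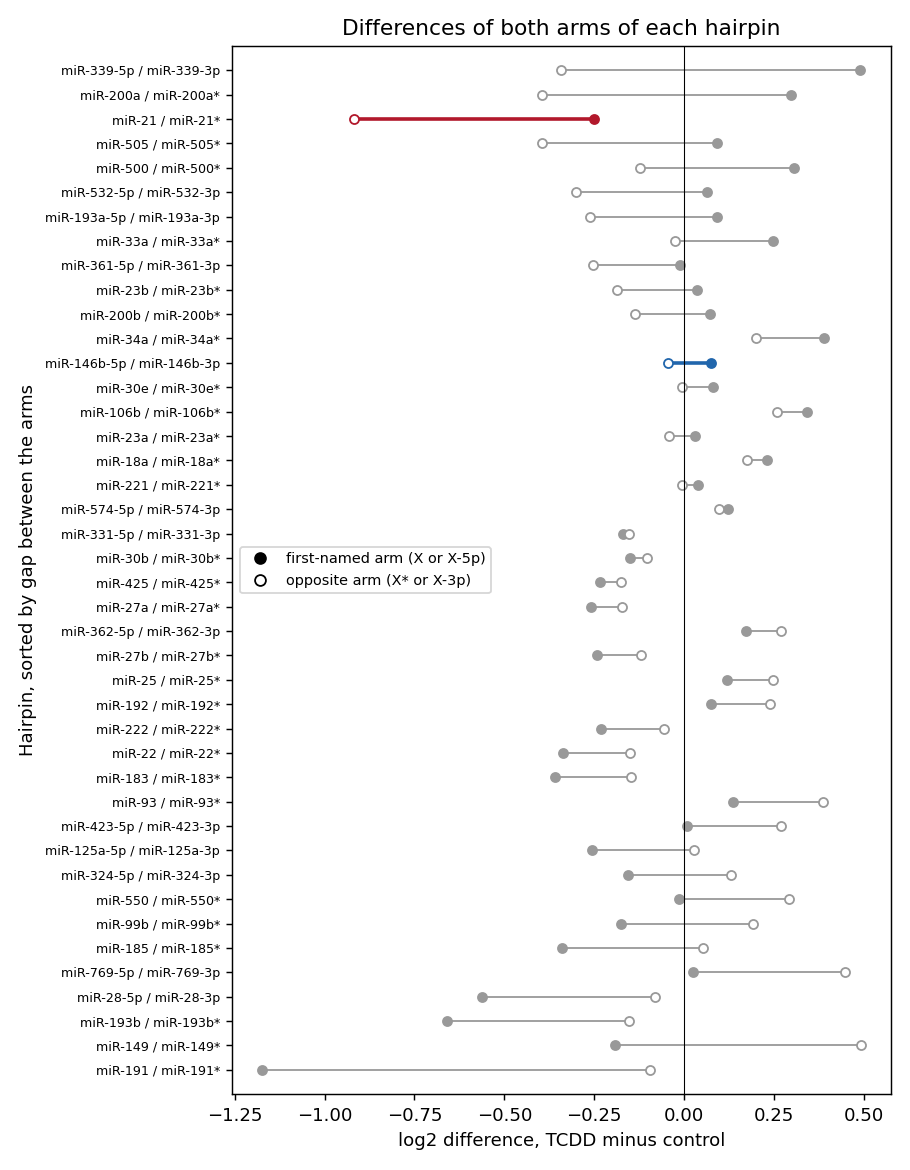
Log2 difference, TCDD minus control (horizontal axis), of both arms of the 42 hairpins above the floor on both arrays, sorted by the gap between arms, with a filled point for the arm named X or X-5p and an open point for the opposite arm. miR-21 (red) has the open point at -0.92 and the filled point at -0.25, while the arms of miR-146b (blue) lie at 0.08 and -0.05.

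The gap between the arms of miR-21 depends on how the arrays are scaled. It was 0.60 with the trend of the difference on signal level removed and 0.68 before the scaling inferred from the values. After quantile normalization it was 0.37, and 13 of 41 hairpins then had a gap at least as large, miR-21 included.

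The probe hsa-miR-146a had 9.47 log2 fluorescence on the TCDD array and 10.10 on the control array, or 711 and 1100 in linear units on the TCDD array and the control array. It was 1.55-fold lower with TCDD, a log2 difference of -0.63. Of the 242 detected names 9 had a lower difference, but in its own bin of signal level, the third from the dimmest, with 55 names and a median difference of 0.02, none did. Its passenger arm, miR-146a*, was at the smallest deposited value on both arrays, so the gap between the arms of this hairpin could not be read.

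The probe hsa-miR-146b-5p, for a miRNA with the same seed, had 11.09 log2 fluorescence on the TCDD array and 11.01 on the control array. The log2 difference was 0.08, or 1.05-fold higher, and 150 of the 242 detected names had a lower one. Its sign changed with the scaling, to -0.08 after quantile normalization and -0.04 before the scaling inferred from the values. The median of the detected names was -0.008 in the former setting and -0.07 in the latter. The opposite arm, miR-146b-3p, lay just above the floor at 6.82 on the TCDD array and 6.87 on the control array, a difference of -0.05, which makes a gap of 0.12 between the arms of miR-146b.

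The miR-146 guides, close in sequence and made from genes on different chromosomes, did not differ alike between the arrays. The difference of miR-146a lay 0.71 log2 units below that of miR-146b-5p, a 1.63-fold change in the relative signal of the probes. It was 0.71 to 0.48 units below it under the 9 other settings run, the smallest under quantile normalization. Median centring, no floor, the floor at the 75th percentile and scaling to RNU6B or to 4 snoRNAs cannot move this gap, by construction.

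The probe hsa-miR-155 was at the smallest deposited value, 5.64, on both arrays, as was miR-155*. Many names shared this value, a fluorescence of 50, as if lower ones had been raised to it, which no source used here states. No level, direction or fold can therefore be given, and a change below the floor was not detectable on these arrays. miR-590-5p, which shares the seed of miR-21, was also under the floor, at 6.19 on the TCDD array and 5.73 on the control array. Of the RefSeq miRNAs that share a seed with a matched member, miR-7153-5p, with the miR-146 seed, was not measured under that name. The probes of miR-21 and of both miR-146 guides were the detected ones among these names of shared seed.

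Other miRNAs linked to inflammation or to its stimuli were taken from a list of 17 names, all on the array. Of these 4 were detected (23.5%) and 13 were not, beside 33.7% of all 718 names detected, and none was at least 2-fold apart, where 2.89% of detected names were. The 4 had a median log2 difference of -0.24, beside -0.003 over all detected names, with 3 lower and 1 higher on the TCDD array. miR-125a-5p, which restrains inflammatory signalling in macrophages, had 11.21 log2 fluorescence on the TCDD array and 11.46 on the control array, a difference of -0.25. let-7i, which represses the receptor TLR4, was at 8.21 on the TCDD array and 8.62 on the control array, a difference of -0.42. The hypoxia-induced miR-210 was at 12.84 on the TCDD array and 12.65 on the control array, a difference of 0.19. The neighbours miR-132 and miR-212, which share a transcript and have been linked to aryl hydrocarbon receptor signalling, were at or near the background. miR-132 had 6.76 on the TCDD array and 6.97 on the control array, a difference of -0.22, and miR-212, at 5.66 on the TCDD array and 6.08 on the control array, was under the floor on both.

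The human miRNAs nearest to each detected member in both log2 values, 3 for each by Euclidean distance over 2 arrays, show what else had such signals. For miR-21 these were miR-222 (0.02 log2 units away), miR-23b and miR-320, with differences of -0.23, 0.04 and 0.14. For miR-21* the nearest, miR-30d, was 0.42 units away, followed by miR-22 and let-7e, and their differences of -0.36, -0.34 and -0.22 were all closer to 0 than that of miR-21*. For miR-146a they were miR-183, miR-28-5p and miR-505*, at -0.36, -0.56 and -0.40. For miR-146b-5p they were let-7d, miR-149* and miR-30b, at -0.05, 0.49 and -0.15. Likeness over 2 arrays is mainly likeness in probe signal. The neighbours were picked by the same 2 values that give the differences, so these are no independent comparison.

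The RNA taken as the reference changes the sizes of the differences, and the arrays held several that are used as one. The small nucleolar RNAs RNU24, RNU38B, RNU44 and RNU66 had differences from -0.15 to 0.07 with a mean of -0.03, and relative to that mean miR-21* was at -0.88, miR-146a at -0.60, miR-21 at -0.22 and miR-146b-5p at 0.11. The other detected snoRNA, RNU48, was left out of this mean. It shared the highest value of the TCDD array with a miRNA probe, and a signal there can be saturated. RNU48 was at 16.02 log2 fluorescence on the TCDD array and 15.58 on the control array, a difference of 0.44, and with it the mean was 0.06. Saturation on the TCDD array would make both of these lower bounds, and it was not tested. The spliceosomal RNU6B was higher on the TCDD array, at 14.44 log2 fluorescence against 13.79 on the control array, a difference of 0.65, and 5S ribosomal RNA was higher by 0.57. Relative to RNU6B miR-21* was at -1.57 and miR-146a at -1.28, both past 2-fold, miR-21 at -0.90 and miR-146b-5p at -0.58. On that scale the median of all detected names was itself at -0.66, since the same shift applies to every name. The part of RNA loading or of labelling in these differences was not tested.

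**Figure D4:**
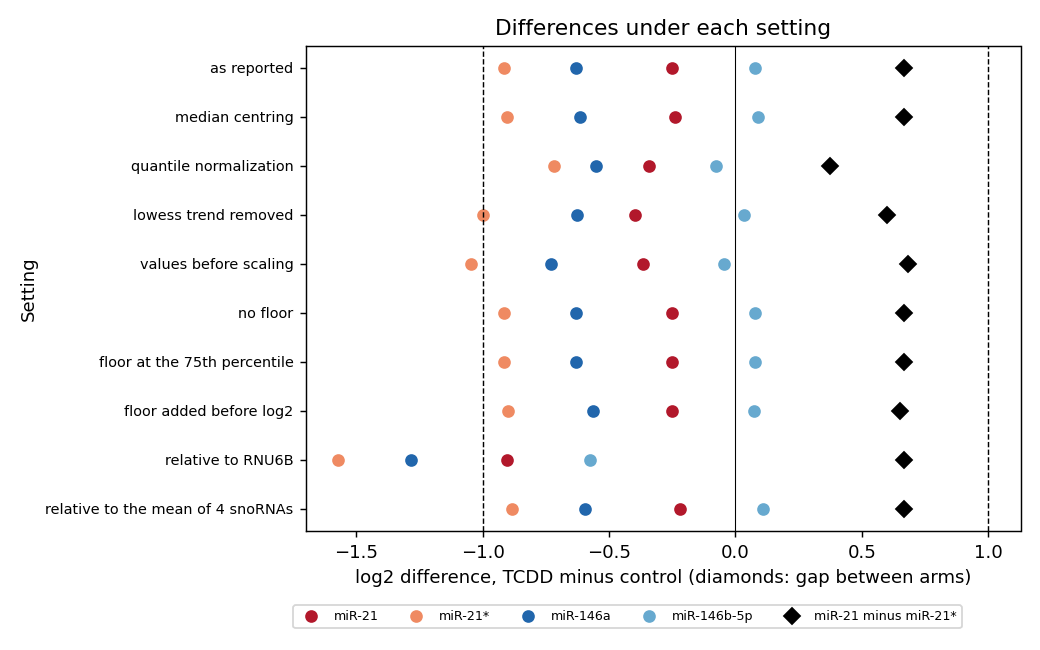
Log2 difference, TCDD minus control (horizontal axis), of the 4 detected members (circles) and the gap between the arms of miR-21 (diamonds) under the reported setting and 9 others (vertical axis), with dashed lines at 2-fold. miR-21* stays below 0 in all 10, from -1.57 to -0.72, miR-146b-5p lies on both sides of 0, and the gap is smallest, 0.37, after quantile normalization.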

How the data were processed

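Small RNAs of HepG2 cells were measured on microarrays, 1 array for TCDD and 1 for control. The authors deposited log2 fluorescence values of a single channel, 1 per probe and array, for 719 probes. Per the series' design text, unrelated samples were in the other channel. Per the labels' protocols, a linker bearing the dye was ligated to the RNA. For background correction, scaling and genome build, the sources used here give nothing (not stated). Leading tags and trailing probe numbers were stripped from probe names, and both probes of miR-340 were averaged, leaving 718 names (670 human miRNAs).

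Values under a floor of 2 times the smallest fluorescence were raised to it, and the log2 difference was TCDD minus control. Names were called at 2-fold, with 1.5-fold and 3-fold as alternatives. No test was made, since each group had 1 array, and the labels do not tell if the cultures were separate. Members and lists were chosen with earlier results of these data known.

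Named in the text are the members, their opposite arms, RefSeq miRNAs with a member's seed, detected miRNAs of a 17-name inflammation list with miR-132 and miR-212, the 3 nearest names to each member, and the 3 largest and the smallest arm gaps, and other names are said to be chosen after their values were seen. Marker miRNAs and reference RNAs serve as checks. The settings varied were the scaling (quantile normalization, median centring, a lowess trend on level taken out with fraction 0.5, values before scaling) and the floor (none, the 75th percentile, or the floor added to each value). No source used here states a scaling, so the values before scaling are inferred. They came from a second-degree curve of log2 signal fitted to each array. It placed 100% of the distinct values above the smallest within 0.05 units of a grid of single units on both arrays. Scaling to RNU6B or to 4 snoRNAs was chosen once the values were known. Code was tested on simulated data and ran in Python 3.11.15 with pandas 2.3.3, statsmodels 0.14.6 (lowess), scipy 1.17.1 (curve fit) and numpy 2.4.6, with figures in matplotlib 3.10.9.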

Additional observations from a re-analysis of the deposited data

How the results depend on the processing

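Of the alternatives, only scaling to RNU6B moved a member's difference by more than the robust SD of 0.28, to -0.90 for miR-21, -1.57 for miR-21*, -1.28 for miR-146a and -0.58 for miR-146b-5p, and it moved the median of the inflammation list to -0.89. Scaling to RNU6B was chosen after the data were seen. Under the 8 other settings miR-21 lay between -0.40 and -0.22, miR-21* between -1.05 and -0.72, miR-146a between -0.73 and -0.55 and miR-146b-5p between -0.08 and 0.11. The gap between the arms of miR-21 was 0.37 after quantile normalization, 0.60 with the level trend removed, 0.65 with the floor added and 0.68 before scaling. The other settings cannot move this gap, since a shared shift cancels and both probes lie above the floors. The count of members at least 2-fold apart, 0 as reported, was 1 before scaling (miR-21*), 2 relative to RNU6B (miR-21* and miR-146a) and 2 at a threshold of 1.5-fold. The median of the detected names was -0.07 before scaling and -0.66 relative to RNU6B. The number of hairpins with a gap at least as large as that of miR-21, itself included, was 5 of 42 as reported, 13 of 41 after quantile normalization, 3 of 42 before scaling, 2 of 24 with the floor at the 75th percentile and 3 of 42 with the floor added. It was 4 of 42 with the level trend removed, and 6 among pairs detected in both arms on at least 1 array. The 17 other named miRNAs run were miR-146b-3p, the detected names of the inflammation list and the names nearest to the members. Of their 134 values under settings other than RNU6B, all moved by less than 0.28, and 4, of 2 names, changed sign. The liver and fibroblast markers, miR-181a* and the arms named only for their gaps had no such values. The member miR-155 was undetected under every setting run and has no value. Without a floor, or with the floor at the 75th percentile, the members' differences are unchanged by construction, since the detected ones lie above both floors. No paired analysis was possible because TCDD and control have 1 array each, which also leaves no replicate to leave out. Signal limits the dim probes: 476 of 718 names lay at or under the floor on both arrays.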
